A study of Mus musculus with 6 samples.

Results

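In a fixed panel of 40 genes that copy and divide the chromosomes, Rrm2 was called lower and Kif20a higher in Dnmt1 knockout kidney cap mesenchyme. The other 38 did not pass the test, so the calls were near the share over all tested genes, 6.85%. Rrm2 was not called when any 1 library was left out, and neither gene was called with sex as a covariate. The panel was a named list, 16 genes of DNA replication and 24 of mitosis, out of the 26567 genes that could be paired with the deposited transcripts. All 40 were expressed above the filter on low counts and were tested among 16989 genes. RNA came from cap mesenchyme, the sheath of cells around the ureteric tips that holds the nephron progenitors, sorted from C57BL/6 mouse kidneys at embryonic day 18.5. Both groups carried Six2.Cre, a Cre recombinase driven from the promoter of the nephron progenitor gene Six2, and a conditional Dnmt1 allele, so that deletion was limited to cells with a history of Six2 expression. In 3 libraries the genotype was Dnmt1 +/- (heterozygous), and in 3 it was Dnmt1 -/- (knockout). No library without a Dnmt1 deletion was among those analysed here, so every comparison below is of Dnmt1 -/- with Dnmt1 +/- cells.

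A cell that divides first licenses its replication origins by loading the Mcm2 to Mcm7 helicase, then fires them with Cdc45 and the GINS complex while ribonucleotide reductase and thymidylate synthase supply nucleotides. Transcription of these genes is driven by E2F factors around the entry into S phase, whereas genes of mitosis are switched on later, in G2, through CCAAT boxes and the cell cycle homology region in their promoters. Dnmt1 copies DNA methylation onto the new strand behind the replication fork, where the sliding clamp Pcna recruits it. Nephron progenitors divide through fetal kidney development and stop around birth.

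The libraries held 46741667 to 61585484 estimated counts each. Dnmt1 read 40.04, 52.4 and 51.7 CPM in heterozygous libraries against 20.9, 18.6 and 14.9 in knockout libraries (CPM is the share of a library's counts scaled by TMM, which corrects for library composition). Its log2 fold change, given here and below ± SE, was -1.41 ± 0.149 (edgeR quasi-likelihood, Benjamini-Hochberg adjusted p = 0.000264). Libraries of the same genotype differed by more than sampling noise, and libraries of different genotype differed more. The 14 cap mesenchyme markers were all detected, and their summed level was 2236 to 2262 CPM of library totals in heterozygous libraries against 1449 to 1673 in knockout libraries. Markers of other cell types were also present: knockout replicate 1 held 245 CPM of 15 endothelial, 1541 of 14 stromal and 312 of 14 ureteric bud markers, against 44.7 to 59.5, 616 to 722 and 84.6 to 130.4 in the heterozygous libraries and 58.6 to 97.8, 611 to 706 and 103.8 to 152.8 in the other two knockout libraries. The 14 macrophage and immune markers summed to 25.8 to 26.7 CPM in heterozygous and 30.6 to 42.8 in knockout libraries. Of these lists, 3 cap mesenchyme markers were called lower (Hoxd11, Wt1 and Cited1), and 1 endothelial (Emcn), 2 macrophage (Lyz2 and Laptm5), 1 stromal (Lum) and 1 ureteric (Ret) marker higher. No defining marker of these lists was at 0 in all 6 libraries, and the part of these cells in the results below was not tested, beyond the values without knockout replicate 1. The libraries also differed in sex: Y-linked genes read over 100 CPM in heterozygous replicates 1 and 3 and knockout replicate 2 and under 10 CPM in the other 3. In sorted bulk RNA, fewer dividing cells and less of a transcript in each dividing cell cannot be told apart.

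All 40 genes were well measured, with at least 426 counts in every library. On the TPM scale, which allows genes of different length to be compared, mean levels ran from 4.83 for E2f1 to 181 for Tyms. Among the replication genes Tyms was highest, with 188 ± 12.6 TPM in heterozygous and 174 ± 3.62 in knockout libraries (SD, n = 3), ahead of Pcna with 152 ± 8.77 and 141 ± 6.62 and Rrm2 with 146 ± 14.1 and 107 ± 7.65. In the heterozygous libraries Pcna and Rrm2 lay within each other's spread, and in the knockout libraries Rrm2 lay below Pcna by more than the spread. Among the mitosis genes Ube2c, the ubiquitin-conjugating enzyme of the anaphase-promoting complex, led with 185 ± 12.4 and 168 ± 3.52 TPM. It was followed by the DNA-untangling enzyme Top2a with 168 ± 16.3 and 149 ± 15.1 and the mitotic kinase Cdk1 with 161 ± 18.4 and 154 ± 11.8, and these 2 did not differ from each other beyond their spread. E2f1 and Ccne1, at 5.65 and 7.70 TPM in heterozygous libraries, were the lowest of the 40.

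**Figure D1:**
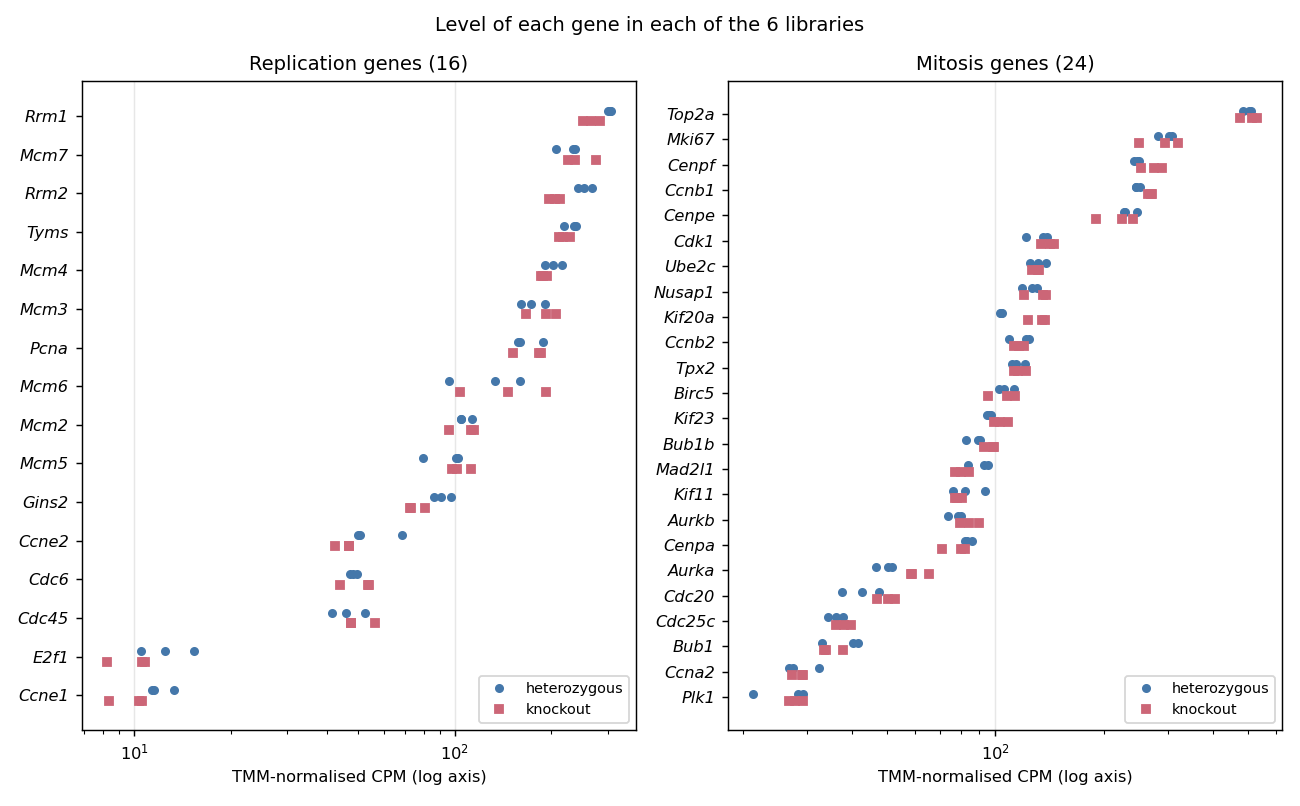
TMM-normalised CPM (log axis) of each gene in each of the 6 libraries, with 16 replication genes on the left, 24 mitosis genes on the right, circles for heterozygous and squares for knockout libraries. The groups overlap for 29 of the 40 genes, and Rrm2 and Kif20a stand clear in opposite directions.

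RefSeq promoters (GRCm38.p6, 250 bases before to 50 after the annotated start) were found for 32 of the 40 genes and searched on both strands for E2F words (TTTGGCGC, TTTGCCGC, TTTCGCGC or TTTCCCGC), the cell cycle homology region (TTTGAA or TTCGAA) and the CCAAT box. An E2F word lay in 5 of 13 replication promoters (38.5%; Cdc6, Mcm3, Mcm5, Mcm6 and Mcm7), in 1 of 19 mitosis promoters (5.3%; Cdk1) and in 2.3% of all 27025 promoters. The homology region lay in 3 replication promoters (23.1%), 14 mitosis promoters (73.7%) and 19.4% of all, and a CCAAT box in 9 (69.2%), 16 (84.2%) and 37.9%. The promoters of the panel were also rich in CpG sites, the bases that Dnmt1 methylates: 28 of 32 (87.5%) had an observed to expected CpG ratio of at least 0.6, against 36.5% of all promoters. All promoters were counted whether or not their gene was expressed, unlike the panel, whose genes were all expressed. Whether the panel promoters were methylated was not tested. The 250 bases before the start are printed for the replication gene that fell (Rrm2), for the replication promoter with the most E2F words (Mcm6), for the mitosis promoter with an E2F word beside the homology region (Cdk1), and for 2 mitosis promoters with the homology region (Cdc20 and Top2a). Capitals mark the words searched, on either strand.
Rrm2 (chr12:24708004-24708253, plus strand): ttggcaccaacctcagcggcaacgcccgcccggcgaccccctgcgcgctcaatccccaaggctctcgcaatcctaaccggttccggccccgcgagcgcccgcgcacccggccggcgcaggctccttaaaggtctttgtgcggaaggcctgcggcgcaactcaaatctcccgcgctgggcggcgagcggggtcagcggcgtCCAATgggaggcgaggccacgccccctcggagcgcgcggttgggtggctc
Mcm6 (chr1:128359706-128359955, minus strand): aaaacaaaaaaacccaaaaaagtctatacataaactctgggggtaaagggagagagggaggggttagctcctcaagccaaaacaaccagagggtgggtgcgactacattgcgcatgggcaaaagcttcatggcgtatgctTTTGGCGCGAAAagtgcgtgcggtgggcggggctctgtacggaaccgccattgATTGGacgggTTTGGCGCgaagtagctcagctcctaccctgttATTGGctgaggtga
Cdk1 (chr10:69352913-69353162, minus strand): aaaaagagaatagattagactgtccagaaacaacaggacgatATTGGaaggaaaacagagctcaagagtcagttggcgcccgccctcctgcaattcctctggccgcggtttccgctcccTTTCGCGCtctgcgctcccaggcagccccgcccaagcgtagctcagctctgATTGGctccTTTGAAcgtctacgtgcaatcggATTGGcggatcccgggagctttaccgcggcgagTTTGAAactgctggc
Cdc20 (chr4:118437344-118437593, minus strand): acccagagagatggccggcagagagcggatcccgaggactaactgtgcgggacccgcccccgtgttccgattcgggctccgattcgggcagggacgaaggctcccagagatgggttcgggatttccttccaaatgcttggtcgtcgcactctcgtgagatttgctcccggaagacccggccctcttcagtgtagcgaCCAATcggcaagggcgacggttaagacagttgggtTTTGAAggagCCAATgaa
Top2a (chr11:99024190-99024439, minus strand): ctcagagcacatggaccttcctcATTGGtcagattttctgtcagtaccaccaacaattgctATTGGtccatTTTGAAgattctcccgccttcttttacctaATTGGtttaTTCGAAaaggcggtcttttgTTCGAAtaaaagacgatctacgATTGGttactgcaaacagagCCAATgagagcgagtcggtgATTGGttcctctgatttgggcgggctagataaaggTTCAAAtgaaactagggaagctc
Mcm6 held 3 E2F matches, 2 of them overlapping each other, whereas Rrm2 held only a CCAAT box, 50 bases before its start. The other 8 replication windows, those of Rrm2, Rrm1, Ccne1, E2f1, Mcm2, Cdc45, Pcna and Tyms, held none of these E2F words, which says only that these letters were not found there. Cdk1 held 1 E2F word, 2 homology regions and 3 CCAAT boxes, Cdc20 held 1 homology region near its start, and Top2a held 4 homology regions and 6 CCAAT boxes. Matches of different kinds overlapped each other once in the 32 promoters. A match is a string of letters and not a measured binding site.

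Of the 16 replication genes, 0 were higher and 1, Rrm2, was lower in the knockout libraries, where 4.92% of all tested genes were called higher and 1.92% lower. DESeq2 called 2 lower (Rrm2 and Gins2), where it called 7.74% of genes higher and 3.67% lower. Scaling by library totals gave 5 lower, where 4.30% of genes were higher and 11.1% lower, and log2(TPM + 1) gave 3 lower, where 3.43% were higher and 5.71% lower. Their median log2 fold change was -0.038, beside -0.003 for all genes tested, and 8 lay above 0 and 8 below. In 5 of them (Rrm2, Rrm1, Gins2, Ccne1 and Ccne2) every knockout library lay below every heterozygous library, and in 0 above, where 14.2% and 14.8% of all tested genes did so. With CPM of library totals 9 lay below and 0 above, where 31.6% and 8.31% of all tested genes did. With TPM 6 lay below and 0 above, where 24.7% and 9.18% did.

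Ribonucleotide reductase turns ribonucleotides into deoxyribonucleotides, and Rrm2 (ENSMUSG00000020649; NCBIM37 chr12:25393106-25399011) encodes its small, cell cycle-regulated subunit. Rrm2 read 268, 252 and 242 CPM in heterozygous libraries against 205, 196 and 213 in knockout libraries. All 3 knockout libraries were below the lowest heterozygous library. The means were 254 ± 13.0 and 205 ± 8.66 CPM (SD, n = 3), so that Rrm2 fell by 0.31 ± 0.077 on the log2 scale (edgeR quasi-likelihood, Benjamini-Hochberg adjusted p = 0.0384), a level 19.4% lower. The direction held without any 1 library (log2 fold change -0.34 to -0.27), but the adjusted p was then 0.0623 to 0.172, so the call was lost without each of the 3 heterozygous and each of the 3 knockout libraries. Without knockout replicate 1, the library with the most endothelial and stromal RNA, the log2 fold change was -0.30, and with sex as a covariate it was -0.33 (edgeR, adjusted p = 0.0894).

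Rrm1, the large subunit of the same enzyme, read 304, 299.9 and 307 CPM in heterozygous and 250.04, 283 and 266 in knockout libraries. The groups did not overlap, yet the log2 fold change of -0.19 ± 0.076 did not pass (edgeR quasi-likelihood, Benjamini-Hochberg adjusted p = 0.180). Tyms, which makes thymidylate, read 239, 236 and 219 CPM against 211, 218 and 229, and the groups overlapped. Its log2 fold change was -0.08 ± 0.076 (edgeR, Benjamini-Hochberg adjusted p = 0.587), and it turned to 0.021 with an offset for transcript length.

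E2f1 and the E cyclins act at the entry into S phase, E2f1 as a transcription factor and Ccne1 and Ccne2 as activators of Cdk2. Their log2 fold changes, -0.37 to -0.30, were the lowest of the panel together with Rrm2 and Gins2, and none of the 3 passed (edgeR, Benjamini-Hochberg adjusted p = 0.178 to 0.265). Ccne2 read 68.3, 50.6 and 50.04 CPM against 46.9, 42.3 and 46.7, with heterozygous replicate 1 standing above the other 5 libraries (log2 fold change -0.31 ± 0.125; edgeR, Benjamini-Hochberg adjusted p = 0.178). Ccne1 read 11.4, 11.5 and 13.3 against 10.4, 8.37 and 10.6 CPM, groups that did not overlap. E2f1 read 15.4, 12.4 and 10.5 against 10.8, 8.22 and 10.6 CPM, and its groups overlapped. Its 95% interval, -0.77 to 0.02, was among the widest, so a fall of a fair size in this rare transcript could not be told from no change.

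For the helicase genes Mcm2 to Mcm7 the log2 fold changes were -0.10 to 0.18 with adjusted p of 0.472 to 0.998 (edgeR, Benjamini-Hochberg), 0 of 6 were called, and the groups overlapped in all 6. Mcm2 was the closest to no difference of the 40, with 105, 105 and 113 CPM in heterozygous and 95.8, 115 and 112 in knockout libraries. Mcm6 was the most variable between libraries of one genotype, at 95.9, 134 and 160 against 104, 193 and 146 CPM, a coefficient of variation of 24.8% and 30.2%. Its lowest values in both groups were in replicate 1. Replicate 1 was the lowest heterozygous library in 5 and the lowest knockout library in 6 of 7 genes, Mcm2 to Mcm7 and Pcna. Knockout replicate 1 is also the library with the most RNA of other cell types, and the part of those cells in this order was not tested.

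Pcna, the sliding clamp that tethers DNA polymerase, read 157, 160.0 and 188 CPM in heterozygous and 151, 185 and 183 in knockout libraries, a log2 fold change of 0.04 ± 0.105 (edgeR, Benjamini-Hochberg adjusted p = 0.839) that turned negative when libraries were scaled by their totals (-0.122) or by TPM (-0.103). Pcna has a processed copy, Pcna-ps2, counted at 33.2 CPM in heterozygous and 24.8 in knockout libraries, and reads could be split between them. Cdc6, which loads the helicase, read 47.3, 49.5 and 48.3 against 53.8, 43.8 and 53.5 CPM, and Cdc45, which activates it, 41.3, 52.5 and 45.9 against 47.6, 47.6 and 56.4. Both overlapped. Gins2, a subunit of the GINS complex that completes the active helicase, stood apart from these: it read 85.8, 97.4 and 90.7 CPM against 73.3, 72.6 and 80.8. Every knockout library was below every heterozygous library, with a log2 fold change of -0.27 ± 0.085 that did not pass in edgeR (quasi-likelihood, Benjamini-Hochberg adjusted p = 0.0911) and passed in DESeq2 (adjusted p = 0.0476).

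Of the 24 mitosis genes, 1, Kif20a, was higher and 0 were lower in the knockout libraries. Among all tested genes 4.92% were called higher and 1.92% lower, so these counts are near the share over all genes. Their median log2 fold change was 0.045, with 14 genes above 0 and 10 below. Knockout libraries lay above all heterozygous libraries for 6 of the 24 genes (Kif20a, Aurka, Ccnb1, Bub1b, Cenpf and Kif23) and below for 0, where 14.8% and 14.2% of all tested genes did so. That count depended on the scaling: with CPM of library totals it was 1 above (Kif20a) and 7 below, where 8.31% and 31.6% of all tested genes were above and below, and with TPM it was 1 above and 5 below, where 9.18% and 24.7% were. The same change of scale moved the median of all genes to -0.166 for library totals and -0.126 for log2(TPM + 1). Relative to that median, the replication genes were at -0.037 and the mitosis genes at 0.049 with library totals, and at 0.011 and 0.039 with log2(TPM + 1), while log2(TPM + 1) without the filter on low values put them at -0.075 and -0.047. The transcript length offset put them at 0.017 and 0.043. The side on which the median of either group lay thus depended on how the data were processed.

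**Figure D2:**
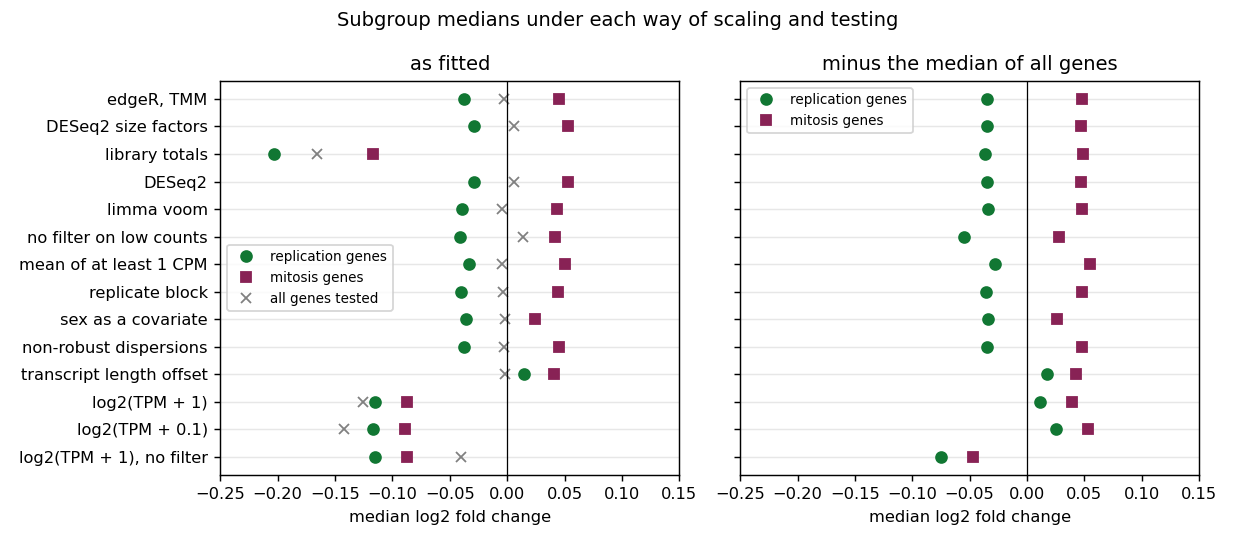
Median log2 fold change (knockout over heterozygous) of the replication genes (circles), the mitosis genes (squares) and all genes tested (crosses) under each way of scaling and testing, as fitted on the left and minus the median of all genes on the right. The mitosis median lies above the replication median in every row, while the position of both against 0 moves with the scaling.

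**Figure D3:**
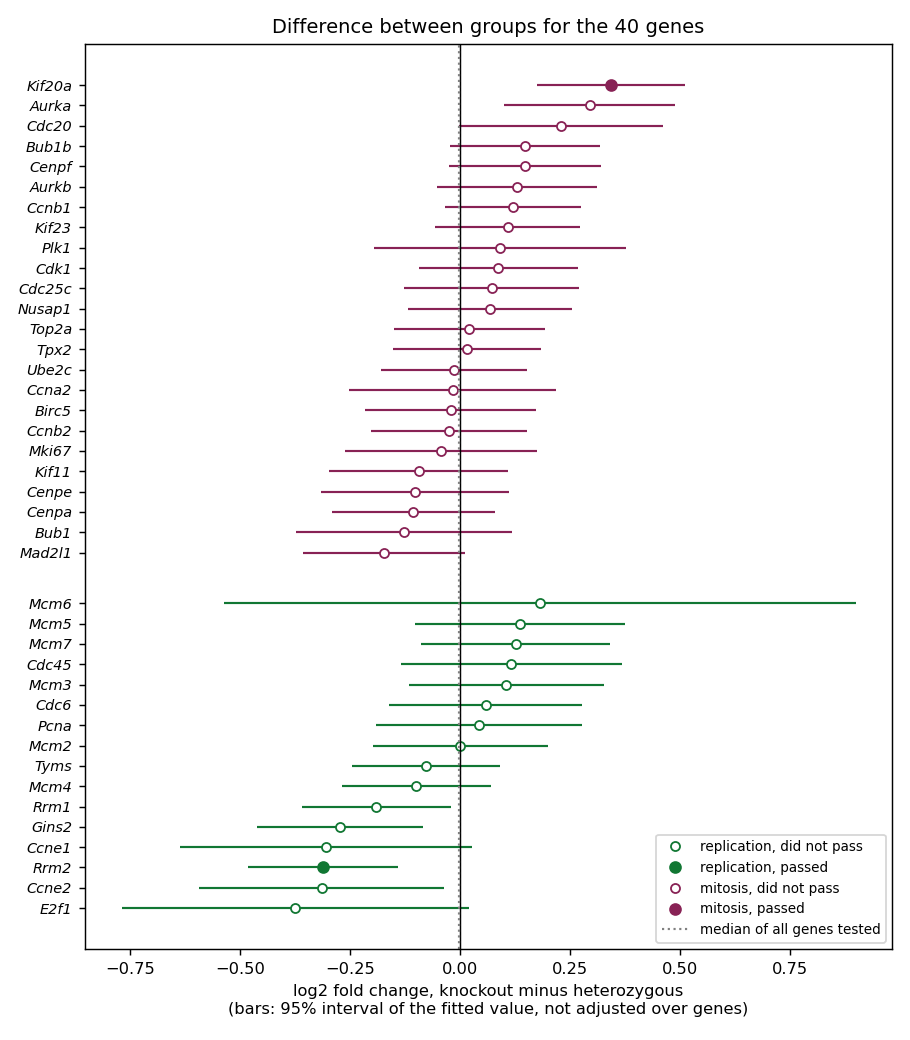
Log2 fold change of each of the 40 genes (knockout over heterozygous, edgeR with TMM) with its 95% interval, ordered within the replication and the mitosis genes. Rrm2 and Kif20a are the members that passed the test, and the intervals of 35 of the 40 genes lie within 0.5 of 0 on either side.

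Kif20a (ENSMUSG00000003779; NCBIM37 chr18:34784278-34792919) encodes a kinesin that works at the central spindle in cytokinesis. It read 104, 104 and 103 CPM in heterozygous libraries against 137, 134 and 123 in knockout libraries. The heterozygous libraries were nearly identical, and all 3 knockout libraries were above them. The means were 104 ± 0.633 and 132 ± 7.30 CPM (SD, n = 3), and Kif20a rose by 0.34 ± 0.075 on the log2 scale (edgeR quasi-likelihood, Benjamini-Hochberg adjusted p = 0.0220), a level 26.8% higher. Scaling by library totals lowered the log2 fold change to 0.18 (edgeR, adjusted p = 0.139), with sex as a covariate the adjusted p was 0.0619, and leaving out heterozygous replicate 2 or 3 or knockout replicate 1 or 2 gave adjusted p of 0.0784, 0.0798, 0.0603 and 0.0771 at log2 fold changes of 0.32 to 0.35. The 3 TPM fits did not call Kif20a either (limma adjusted p = 0.157 to 0.218). The kinesins and spindle proteins beside it did not pass. Kif23, another kinesin of the central spindle, read 96.1, 94.5 and 97.1 against 103, 98.9 and 108 CPM. Kif11, which pushes the spindle poles apart, read 93.8, 82.3 and 76.2 against 78.1, 81.0 and 77.3. Tpx2, which assembles spindle microtubules, read 111, 121 and 114 against 121, 113 and 116 CPM, and Nusap1, which bundles them, 131, 126 and 119 against 138, 135 and 120.2. The Kif11, Tpx2 and Nusap1 groups overlapped.

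Among the mitosis genes the kinase gene Aurka was next in size after Kif20a. Its product matures the centrosomes and is activated by Tpx2. Aurka read 51.6, 50.5 and 46.7 CPM in heterozygous and 65.5, 58.8 and 58.3 in knockout libraries, with no overlap. Its log2 fold change of 0.29 ± 0.087 did not pass in edgeR (quasi-likelihood, Benjamini-Hochberg adjusted p = 0.0778) and passed in DESeq2 (adjusted p = 0.0187). Aurkb, the kinase of the chromosomal passenger complex, read 78.6, 80.5 and 73.7 against 84.6, 90.2 and 79.9 CPM, and Plk1, which acts from mitotic entry to cytokinesis, 21.3, 28.3 and 29.2 against 26.8, 27.8 and 29.3. Both overlapped.

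Cdk1 and its cyclins drive entry into mitosis, and all 5 genes of this role differed little. Ccnb1 read 252, 245 and 245 CPM in heterozygous and 265, 269 and 272 in knockout libraries, tight groups that did not overlap. Its log2 fold change was 0.12 ± 0.069 (edgeR, Benjamini-Hochberg adjusted p = 0.342), and it turned to -0.042 with library totals, so its direction was not settled. Cdk1 read 135, 139 and 122 against 142, 145 and 134 CPM, Ccnb2 121, 124 and 109 against 120, 116 and 112, and Ccna2 32.4, 27.4 and 26.7 against 29.0, 27.3 and 29.2, all with overlap. The log2 fold change of Cdk1 was 0.09 ± 0.081 (edgeR, Benjamini-Hochberg adjusted p = 0.559) and turned negative with library totals (-0.076) and TPM (-0.063). Ccnb2 also has a counted copy, Ccnb2-ps, at 6.24 and 5.43 CPM. Cdc25c, a phosphatase that activates Cdk1, read 36.1, 37.8 and 34.3 against 39.8, 36.1 and 37.97 CPM.

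The spindle checkpoint holds anaphase until every chromosome is attached, and Cdc20 is the activator of the anaphase-promoting complex that it restrains. Ube2c, with which that complex marks its targets, read 131, 138 and 125 CPM against 126, 132 and 131 (log2 fold change -0.01 ± 0.075; edgeR, Benjamini-Hochberg adjusted p = 0.934). Cdc20 read 37.6, 47.4 and 42.7 CPM in heterozygous and 46.8, 50.3 and 52.7 in knockout libraries, with 1 heterozygous library inside the knockout range (log2 fold change 0.23 ± 0.104; edgeR, Benjamini-Hochberg adjusted p = 0.229). The checkpoint kinase gene Bub1b read 82.8, 89.2 and 90.4 against 93.2, 98.8 and 98.7 CPM, and its related kinase Bub1 41.5, 40.2 and 32.9 against 37.8, 33.4 and 33.8. Mad2l1, which binds Cdc20, lay on the other side, at 95.3, 93.1 and 84.1 against 80.4, 77.0 and 84.4 CPM, the lowest log2 fold change of the mitosis genes. Its knockout replicate 3 was level with heterozygous replicate 3, and the checkpoint genes lay on both sides of 0.

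Genes of the centromere and of the chromosome itself gave 0 calls among 6, where 6.85% of all tested genes were called. Cenpf, a kinetochore protein of G2 and mitosis, read 249.8, 242 and 246 against 276, 252 and 290 CPM without overlap (log2 fold change 0.15 ± 0.078; edgeR, Benjamini-Hochberg adjusted p = 0.300), and its sign turned with library totals. The centromeric histone Cenpa read 82.2, 86.1 and 83.4 against 80.4, 71.1 and 82.4 CPM, the kinetochore motor Cenpe 247, 228 and 227 against 224, 190 and 241, and the passenger protein Birc5 106, 113 and 103 against 114, 95.5 and 107. Mki67, whose protein coats mitotic chromosomes and is the usual marker of proliferating cells, read 282, 304 and 308 CPM in heterozygous and 296, 251 and 320.4 in knockout libraries. Top2a read 505, 484 and 511 against 513, 477 and 532 CPM (log2 fold change 0.02 ± 0.077; edgeR, Benjamini-Hochberg adjusted p = 0.898). The range of Mki67 and of Top2a in knockout libraries enclosed that in heterozygous libraries. Their log2 fold changes lay within 0.05 of 0, with 95% intervals of -0.26 to 0.18 and -0.15 to 0.19.

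**Figure D4:**
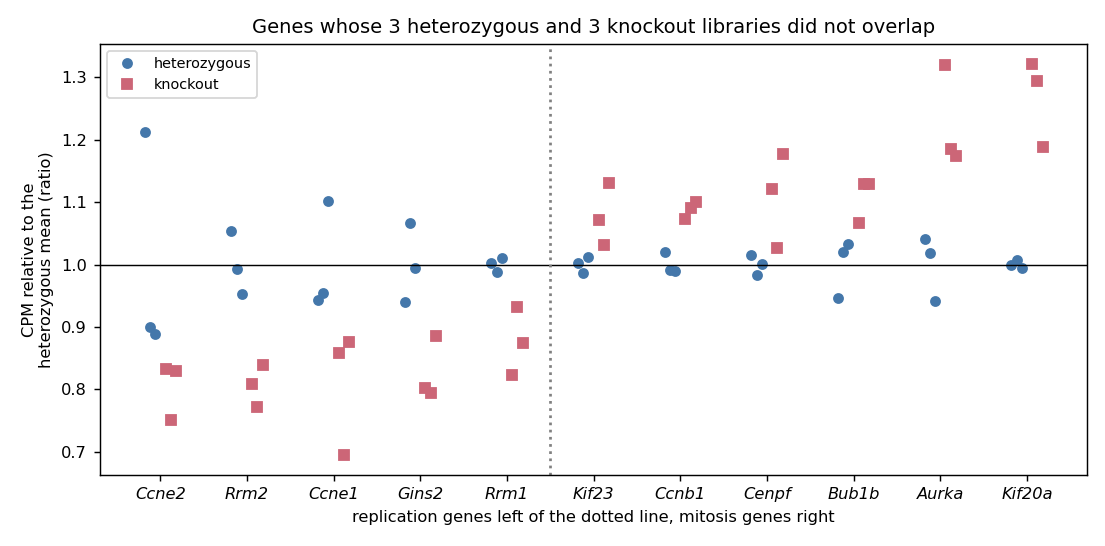
CPM in each library divided by the heterozygous mean (ratio; circles heterozygous, squares knockout) for the 11 genes whose knockout and heterozygous libraries did not overlap, 5 replication genes with the knockout libraries below and 6 mitosis genes with them above. Only Rrm2 and Kif20a passed the test, and the separation of Ccnb1, Bub1b, Cenpf, Kif23 and Aurka was lost when libraries were scaled by their totals.

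Most values of the panel lay near 0, more so for the mitosis than for the replication genes. Of the 40 log2 fold changes, 32 (80%) lay within 0.2 of 0, against 48.3% of all tested genes. Among the 8967 tested genes at least as abundant as the least abundant of the 40, 66.4% did. The replication genes, with 11 of 16 (68.8%), were near that share, and the mitosis genes had 21 of 24 (87.5%). The 8967 genes were not otherwise matched to the panel in abundance. All 40 lay within 0.5 of 0, and for 35 the whole 95% interval did. The 5 exceptions were Mcm6, E2f1, Ccne1, Ccne2 and Kif20a. The interval excluded 0 for 6 genes, Rrm2, Gins2, Ccne2, Rrm1, Kif20a and Aurka.

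Within a library, replication and mitosis genes can be set against each other without any scaling between libraries. The mean log2 CPM of the mitosis genes minus that of the replication genes was 0.07, 0.05 and -0.05 in heterozygous libraries against 0.23, 0.08 and 0.10 in knockout libraries. On this measure every knockout library lay above every heterozygous library. The highest was again knockout replicate 1, and the other 2 knockout libraries lay close above the heterozygous range. The ratio of Kif20a to Rrm2 in TPM, formed from the 2 genes called, was 0.225, 0.240 and 0.247 in heterozygous and 0.392, 0.401 and 0.336 in knockout libraries. That ratio is a description of how the genes were picked and has no test. Replication genes summed to 1177, 1134 and 1147 TPM in heterozygous and 1005, 1033 and 1034 in knockout libraries, and mitosis genes to 1678, 1561 and 1470 against 1576, 1395 and 1481. The mitosis sum over the replication sum was 1.426, 1.376 and 1.282 in heterozygous and 1.568, 1.350 and 1.433 in knockout libraries. By that ratio the groups overlapped, so the separation depended on the measure.

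The transcripts of the 40 genes gave no further call. Of 143 listed transcripts, 117 were tested and 0 passed in edgeR (quasi-likelihood test, Benjamini-Hochberg adjustment), where 1.79% of 50137 tested transcripts did. The smallest adjusted p was 0.104, for Cenpf-002, at 70.6 ± 4.29 CPM in heterozygous and 91.6 ± 4.72 in knockout libraries (SD, n = 3). At an unadjusted p under 0.05 there were 13 of 117, where 13.4% of all tested transcripts were. DESeq2 called 4 of the 117 (Rrm2-001, Aurka-001, Cenpf-002 and Tpx2-002), where it called 5.45% of all.

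The wider lists of replication, mitosis and checkpoint genes held 0 calls in edgeR with TMM, but other fits made some. Of 50 other replication genes, 0 were called; the median log2 fold change was -0.062, 34 of 50 lay below 0 (50.4% of all tested genes did), and 14 had all knockout libraries below and 3 above (14.2% and 14.8% of all tested genes). Those with the smallest p were Dscc1, a subunit of a clamp loader (-0.36 ± 0.110), Rpa1, which coats single-stranded DNA (0.25 ± 0.081), Slbp, which binds histone messages (-0.27 ± 0.089), and Pola1, the primase-linked polymerase (-0.27 ± 0.099), with edgeR adjusted p of 0.0910 to 0.147. Of 59 other mitosis genes tested, 0 were called, with a median of 0.037, and 14 had all knockout libraries above and 5 below, again beside 14.8% and 14.2% of all genes. Mad1l1 of the spindle checkpoint (0.62 ± 0.164) and the spindle protein Dlgap5 (0.36 ± 0.103) lay above 0, and the centromere proteins Cenph (-0.45 ± 0.125) and Cenpn (-0.29 ± 0.093) below, with edgeR adjusted p of 0.0569 to 0.104. Of 30 genes of the replication checkpoint and repair, 0 were called, and 26 lay below 0, beside 50.4% of all genes, with a median of -0.129. The checkpoint kinase Chek1 (-0.49 ± 0.136; edgeR adjusted p = 0.0626) and the recombination factor Rad54l (-0.36 ± 0.096; edgeR adjusted p = 0.0535) came closest, ahead of the Brca1 partner Bard1 (-0.40 ± 0.176; edgeR adjusted p = 0.222) and the mismatch repair gene Msh6 (-0.21 ± 0.097; edgeR adjusted p = 0.231). At an unadjusted p under 0.05 these 3 lists held 11 of 50, 13 of 59 and 3 of 30 genes, where 22.0% of all tested genes were. DESeq2 called Rpa1, Mad1l1 and Dlgap5 higher and Dscc1, Cenph, Rad54l and Chek1 lower. Over all tested genes it called 7.74% higher and 3.67% lower. Library totals called 12, 5 and 6 genes of the 3 lists lower and 0 higher, where 11.1% of all genes were lower and 4.30% higher. With log2(TPM + 1), 4, 3 and 2 were lower and 0 higher, where 5.71% of all genes in that fit were lower and 3.43% higher. Mad1l1 was also called by limma voom, and Chek1 and Rad54l by edgeR without a filter on low counts.

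Genes of G1 and the inhibitors of the cycle formed the other lists. Ccnd2, the D-type cyclin that activates Cdk4 and Cdk6, read 160.5, 196 and 173 CPM in heterozygous and 418, 345 and 399 in knockout libraries. Every knockout library was above every heterozygous library, and Ccnd2 rose by 1.14 ± 0.102 on the log2 scale (edgeR, Benjamini-Hochberg adjusted p = 6.52e-05), the 1 call among 19 G1 cyclins, kinases and E2F factors. The next smallest p in that list were those of the cyclin Ccnd1 (0.29 ± 0.103; edgeR adjusted p = 0.127) and the kinases Cdk7 (-0.18 ± 0.076; edgeR adjusted p = 0.198) and Cdk6 (-0.23 ± 0.116; edgeR adjusted p = 0.280). Of 18 inhibitors tested, 3 rose and 1 fell. Their median log2 fold change was 0.005, with 9 above 0 and 9 below. Beside both of these lists, 4.92% of all tested genes were called higher and 1.92% lower. Cdkn1a, an inhibitor of cyclin-dependent kinases, rose from 52.9 ± 3.98 to 103 ± 16.5 CPM (SD, n = 3; log2 fold change 0.97 ± 0.118; edgeR adjusted p = 0.000597). Btg2, an antiproliferative gene, rose by 0.54 ± 0.103 (edgeR adjusted p = 0.0109), and Ccng1 by 0.46 ± 0.121 (edgeR adjusted p = 0.0494), a call that was lost in 12 of 19 alternatives. Those were leaving out heterozygous replicate 1, 2 or 3 or knockout replicate 2 (edgeR adjusted p up to 0.161), library totals (0.101), limma voom (0.0574), the replicate block (0.091), non-robust dispersions (0.0629), the length offset (0.051) and the 3 TPM fits (limma, 0.144 to 0.227). Btg1, a relative of Btg2, fell by 0.48 ± 0.103 (edgeR adjusted p = 0.0193). Btg2 was not called without heterozygous replicate 2 or knockout replicate 2 (edgeR adjusted p up to 0.0611), nor Btg1 without knockout replicate 1 or 2 (up to 0.117) or with sex as a covariate (0.0697). Neither was called with log2(TPM + 1) and no filter (limma adjusted p = 0.0937 and 0.0629), while Ccnd2 and Cdkn1a were called without any 1 library. Whether the Ccnd2 and Cdkn1a changes differ from those of the 40 genes was not tested.

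**Figure D5:**
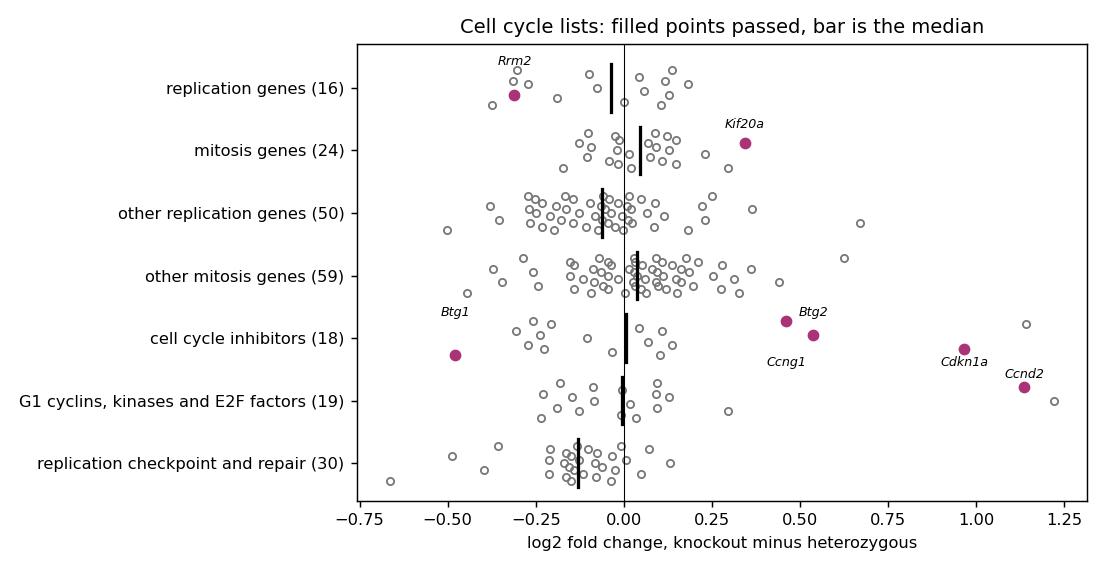
Log2 fold changes (knockout over heterozygous, edgeR with TMM) of the tested genes in the replication and mitosis panels and the wider cell cycle lists, 1 point per gene, with the called genes marked. Most points lie near 0 in every list, and Ccnd2 and Cdkn1a are the called genes farthest above it.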

How the data were processed

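RNA-seq libraries of sorted cap mesenchyme, 3 heterozygous and 3 knockout for Dnmt1, were grouped by their titles. The authors deposited kallisto tables, per the submitters' processing notes. Per the file headers, the authors' values for each transcript are an estimated count from kallisto, a TPM scaled by length and library total, and an effective length. The notes name mm10. Not given in the sources used are the kallisto version, the annotation of its index and the strandedness of the kit, so antisense reads cannot be separated. The labels do not say whether libraries came from separate embryos, so p-values measure the spread between these samples only.

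Each file listed 96626 transcripts. GENCODE vM1 on NCBIM37 paired 74519 with 26567 genes, covering 92.4% to 92.82% of each library. Gene coordinates are those of NCBIM37, not mm10. Counts were summed per gene, rounded, and tested with edgeR 4.0.16 (limma 3.58.1, R 4.3.3) by the quasi-likelihood test, with TMM, filterByExpr, robust dispersions, no covariates and Benjamini-Hochberg adjustment over all 16989 genes kept. A gene is called at an adjusted p under 0.05. The biological coefficient of variation was 0.21. CPM uses TMM library sizes unless library totals are named. Motifs were read from RefSeq promoters of GRCm38.p6.

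Alternatives were DESeq2 1.42.0 and its size factors, library totals, limma voom, other filters, a transcript length offset from the deposited effective lengths, limma on log2(TPM + 1) and log2(TPM + 0.1), sex as a covariate, the replicate number as a block, dispersions fitted without robustness, and leaving out each library. All 40 panel genes, Dnmt1, Cdkn1a and the 4 genes of smallest p in each wider list are named, with full statistics for called members and the 3 members of smallest p or highest TPM among the replication and the mitosis genes. The others, and those given fold changes because their groups did not overlap, were chosen after their values were seen. Members and lists were chosen with earlier results of these data known. The tests were checked on data simulated with a lower biological coefficient of variation than that of these libraries. There, 50% of genes given a log2 fold change of -0.5 and 52% of those given 0.5 were recovered. Smaller changes, such as those fitted for the 40 panel genes, were not simulated, so how often the test would miss them is not known.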

Additional observations from a re-analysis of the deposited data

How the results depend on the processing

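Counts of 3 libraries a group and the scale set the limits. With library totals, 5 replication genes were called lower (Mcm4, Rrm1, Rrm2, Gins2 and Ccne2), 0 mitosis genes higher and 1 lower (Mad2l1), with medians of -0.203 and -0.117 and 1883 genes called lower in all. With log2(TPM + 1) the replication genes called lower were 3 and the mitosis genes called higher 0, with medians of -0.115 and -0.087 and 457 genes higher and 761 lower. With log2(TPM + 0.1) these were 3, 0, -0.117, -0.089, 454 and 756, and with log2(TPM + 1) and no filter 2, 0, -0.115 and -0.087, with 548 genes higher. DESeq2 called 1315 genes higher and 624 lower, 2 replication genes lower (Rrm2 and Gins2), 2 mitosis genes higher (Kif20a and Aurka) and 4 member transcripts, and library totals called 2 member transcripts (Rrm2-001 and Rrm1-201). With sex as a covariate, 162 genes were lower, 0 replication genes lower and 0 mitosis genes higher. The transcript length offset moved the replication median to 0.015. Leaving out 1 library at a time gave 526 to 916 genes higher, 116 to 272 lower, 0 replication genes lower, 0 to 1 mitosis genes higher, and medians of -0.06 to -0.01 and 0.031 to 0.068. The lowest counts of calls, 526 and 116, came without knockout replicate 2. The cause of these shifts was not tested, beyond the fewer samples of the last.

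Signs turned for genes near 0. With library totals the log2 fold change was -0.122 for Pcna, -0.14 for Top2a, -0.042 for Ccnb1, -0.076 for Cdk1, -0.015 for Bub1b, -0.054 for Kif23 and -0.013 for Cenpf. With log2(TPM + 1), filtered or not, it was -0.103 for Pcna, -0.17 for Top2a, -0.063 for Cdk1 and -0.014 for Kif23, and with log2(TPM + 0.1) -0.103, -0.171, -0.063 and -0.014. The length offset gave 0.021 for Tyms and -0.04 for Top2a. Without 1 library, Pcna lay between -0.006 and 0.142, Top2a between -0.015 and 0.075 and Ube2c between -0.047 and 0.022.

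The labels do not say whether replicate numbers pair the samples. Correlations of the deviations of same-numbered libraries were -0.058, -0.048 and -0.031. Same-numbered libraries also differed in sex, so these low values do not show that the samples are unpaired. With the replicate block, 0 replication genes were called lower (Rrm2 log2 fold change -0.31, edgeR adjusted p = 0.0629).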

Other observations

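Outside the panel, relatives of its cyclins and kinesins gave larger differences than any of the 40 genes; these were chosen after their values were seen. Ccnb3 (NCBIM37 chrX:6556778-6618745), a B-type cyclin best known from meiosis, read 0, 0.051 and 0.044 CPM in heterozygous libraries against 1.57, 1.39 and 1.26 in knockout libraries, or 5 against 210 counts in all. All 3 knockout libraries were above all heterozygous libraries (log2 fold change 5.35 ± 0.638; edgeR quasi-likelihood, Benjamini-Hochberg adjusted p = 0.000451). Even there Ccnb3 stayed far under Ccnb1 in count. Kif2b (NCBIM37 chr11:91436629-91438923), a microtubule-depolymerising kinesin, had 0 counts in heterozygous libraries against 61 in knockout libraries, at 0.318, 0.617 and 0.275 CPM. Taken against 3 counts in each heterozygous library, it was at least 6.52-fold higher (edgeR adjusted p = 0.00619, and 0.0536 without knockout replicate 2). Kif2b was also not called with log2(TPM + 1) and no filter (limma adjusted p = 0.0549), while 14 alternatives left its call unchanged. Its transcript Kif2b-001 did not pass (edgeR adjusted p = 0.0585). Ccnb3 and Kif2b passed the filter on low counts only through the knockout libraries, so their p-values are descriptions of genes picked for their values.

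Kif24 (NCBIM37 chr4:41337778-41411920), a kinesin of the centrioles, rose from 18.8 ± 2.71 to 2904 ± 234 CPM (SD, n = 3; log2 fold change 7.27 ± 0.149; edgeR adjusted p = 1.4e-09). Nearly all of it was 1 transcript, Kif24-004, which is annotated as a processed transcript and not as protein-coding. Kif24-004 made up 99.5% of the knockout counts of the gene and read 3.74 CPM in heterozygous and 2742 in knockout libraries. The protein-coding transcripts differed little: Kif24-001 read 11.9 and 12.1, Kif24-002 0.201 and 0.254, and Kif24-006 0.172 and 0.203. Among tested genes with a Kif symbol outside the panel, 32 in number, 3 were higher (Kif24, Kif2b and Kif1a) and 1 was lower (Kif26b), where 4.92% of all tested genes were higher and 1.92% lower. Of 3 other Mcm genes and 4 other Plk genes, 0 were called.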
